A study of Mus musculus with 6 samples.

Results

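The interferon-stimulated genes described here are 42 mouse genes that were chosen by symbol as a family, with earlier results of these data known. All 42 were found among the 54532 gene IDs of the gene tables. They were measured by RNA sequencing in 3T3-L1 cells, a clonal mouse preadipocyte line that can be differentiated into fat-storing adipocytes and that is labelled WT and adipocytes in all 6 libraries. The 3 CIH libraries (CIH 1, 2 and 3) came from cells given chronic intermittent hypoxia, that is, repeated spells of low oxygen, and the 3 control libraries (control 1, 2 and 3) from cells labelled as control. Cells of both groups were grown in DMEM with 10% serum, induced with insulin and then held in medium with 0.1 µM insulin until day 8. The sources used here do not give the oxygen levels or the length of the cycles. Levels are given in FPKM, fragments scaled to the length of the gene or transcript and to the size of the library. Replicates 1 and 2 of both groups are gene tables, while replicate 3 of both groups is a pair of transcript tables, a different kind of file, so that CIH 1 and 2 were compared with control 1 and 2, and CIH 3 with control 3, and no level was compared across the 2 kinds of table. The labels do not settle whether replicate 3 came from the same experiment as replicates 1 and 2, or whether both of its libraries carry the right label. The labels name no separate cultures, so that p-values measure the spread between libraries, which may be technical.

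Interferons are secreted proteins that bind receptors on the cell surface and, through the kinases JAK1, JAK2 and TYK2, activate transcription factors of the STAT family. Type I interferons act through a complex with STAT2 and IRF9 that binds the interferon-stimulated response element (ISRE) in the promoters of its target genes, and type II interferon acts through STAT dimers that bind gamma-activated sites (GAS). The target genes encode sensors of viral RNA, enzymes that block viral replication, guanylate-binding and immunity-related GTPases, and regulators of the response itself. Many are transcribed at a low level without infection, and adipocytes and their precursors express the type I receptor and respond to it.

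The promoters of 4 members are printed because they hold the ISRE core, GAAA followed by any 2 bases and GAAA again (TTTC, any 2 bases, TTTC when read on the other strand), the sequence that the family is known for. Oas3, Igtp and Ifit1 fell most in CIH 1 and 2 among the members that have the core and exactly 1 window, and Ifitm3 is the member that rose. The annotated start of the GTPase gene Irgm2, chr11:58199618 on the same strand, lies just past the end of the Igtp window. Each window runs from 250 bases before the start site of the gene to 50 bases after it, 5′ to 3′ along the gene, taken from RefSeq on GRCm38.p6. Capitals mark the core.
Oas3 (chr5:120777610-120777909, minus strand): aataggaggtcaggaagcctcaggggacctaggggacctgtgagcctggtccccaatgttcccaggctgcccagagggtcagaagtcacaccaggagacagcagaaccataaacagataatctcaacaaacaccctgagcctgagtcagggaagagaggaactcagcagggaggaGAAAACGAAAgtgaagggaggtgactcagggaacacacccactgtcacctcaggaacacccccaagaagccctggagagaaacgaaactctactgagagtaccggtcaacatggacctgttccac
Igtp (chr11:58199306-58199605, plus strand): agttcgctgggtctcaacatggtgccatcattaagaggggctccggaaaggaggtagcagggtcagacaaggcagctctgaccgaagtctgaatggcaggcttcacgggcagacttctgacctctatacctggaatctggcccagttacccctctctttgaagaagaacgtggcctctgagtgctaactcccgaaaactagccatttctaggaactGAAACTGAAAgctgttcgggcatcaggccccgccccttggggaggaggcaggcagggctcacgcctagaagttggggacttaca
Ifit1 (chr19:34640639-34640938, plus strand): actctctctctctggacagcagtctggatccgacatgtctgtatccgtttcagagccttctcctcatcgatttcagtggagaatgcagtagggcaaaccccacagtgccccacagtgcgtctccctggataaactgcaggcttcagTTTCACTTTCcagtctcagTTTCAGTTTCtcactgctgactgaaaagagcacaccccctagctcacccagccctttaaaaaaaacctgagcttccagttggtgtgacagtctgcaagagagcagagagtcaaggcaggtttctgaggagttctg
Ifitm3 (chr7:141010695-141010994, minus strand): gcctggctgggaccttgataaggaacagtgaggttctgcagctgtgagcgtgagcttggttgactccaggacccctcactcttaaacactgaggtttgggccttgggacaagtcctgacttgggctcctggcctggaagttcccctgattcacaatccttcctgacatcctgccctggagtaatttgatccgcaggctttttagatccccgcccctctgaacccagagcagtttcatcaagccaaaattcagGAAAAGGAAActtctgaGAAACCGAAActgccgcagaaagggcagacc

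The core starts 75 bases before the start site in Oas3 and 34 bases before it in Igtp. Ifit1 holds it at 104 and at 85 bases before the start site, both times on the opposite strand, and Ifitm3 holds it at bases 3 and 20 after the start site. A window was found in the RefSeq table for 33 of the 42 members. The core, searched on both strands, was present in 18 of these 33 (54.5%), against 3.99% of all 27025 genes with a window. The GAS letters TTCNNNGAA, which read the same on both strands and may overlap an ISRE core, were present in 9 of the 33 (27.3%), against 9.55% of all genes. The median log2 change in CIH 1 and 2 was -0.73 for the 17 tested members with the core, 15 of which fell, and -0.73 for the 11 tested members without it, 9 of which fell. Among all tested genes 21.7% fell. The changes of genes outside the members were not split by the core. In the replicate 3 pair the median log2 difference was 2.76 with the core and 2.37 without it. A match of letters is a description and not a measured binding site.

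The 4 gene tables rest on 26400000 to 28500000 fragments per library, recovered from the values, and the depth of the transcript tables is unknown. Log2 levels of 10976 genes correlated at 0.997 between CIH 1 and CIH 2 and at 0.995 between control 1 and control 2, but at 0.756 between CIH 3 and control 3; genes are not independent replicates. The 10 defining adipocyte markers summed to 6987 and 6161 FPKM in CIH 1 and 2, against 7657 and 8196 FPKM in control 1 and 2. Of 9 tested, 4 fell, against 21.7% of all tested genes, and 5 did not pass the test. The falls were 11.1-fold for Cfd, 8.00-fold for Retn, 3.68-fold for Slc2a4 and 1.88-fold for Pparg on the FPKM + 1 scale. In the transcript tables the 10 markers summed to 644 FPKM in CIH 3, against 29703 FPKM in control 3. There 9 of 10 were at least 2-fold lower in CIH 3, against 11.3% of all genes. The 10 markers of preadipocytes and fibroblasts summed to 577 and 575 FPKM in CIH 1 and 2, against 368 and 389 FPKM in control 1 and 2. Of 9 tested, 6 were higher and 2 lower in CIH, against 20.2% and 21.7% of all tested genes. These 10 markers summed to 5006 FPKM in CIH 3, against 836 FPKM in control 3. Of them, 9 of 10 were at least 2-fold higher in CIH 3, against 23.6% of all genes. The leukocyte markers Adgre1 and Cd3e were listed at 0 in all 6 libraries and Ptprc in all but CIH 2, where it was at 0.00199 FPKM. Of the 12 leukocyte markers, 4 were at least 2-fold higher in CIH 3 and 1 (Cd68) at least 2-fold lower, on the FPKM + 1 scale. Among all genes 23.6% were at least 2-fold higher and 11.3% at least 2-fold lower. Cd68 was at 0.978 FPKM in CIH 3, against 4.56 FPKM in control 3. Cd14 was at 8.39 FPKM in CIH 3, against 1.40 FPKM in control 3. Cd74 was at 4.53 FPKM in CIH 3, against 1.37 FPKM in control 3. Lyz2 was at 2.64 FPKM in CIH 3, against 0.285 FPKM in control 3, and Aif1 at 1.65 FPKM in CIH 3, against 0.281 FPKM in control 3. The 12 leukocyte markers summed to 8.23 and 8.71 FPKM in CIH 1 and 2, against 9.36 and 9.38 FPKM in control 1 and 2, and to 19.5 FPKM in CIH 3, against 8.06 FPKM in control 3, and the 6 endothelial markers stayed at or below 1.02 FPKM in sum in every library. The part of these differences in the results on the interferon-stimulated genes was not tested. In bulk libraries fewer cells of a type and less RNA per cell cannot be told apart.

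In replicates 1 and 2 the interferon-stimulated genes were lower in CIH as a group. The members were chosen with earlier results of these data known. Their counts against all genes, here and in the replicate 3 pair, are therefore not independent evidence. Of the 36 members that passed the level filter (1 FPKM or more on average across the 4 gene tables), 31 fell, 1 rose (Ifitm3) and 4 did not pass the test (Irf1, Ifitm2, Trim25 and Iigp1), with limma on log2(FPKM + 1) at an adjusted p under 0.05 over 10981 genes. Among all tested genes 21.7% fell and 20.2% rose. Falls made up 51.9% of the calls among all genes, 68.7% when the libraries were scaled to equal totals and 30.8% when scaled by the upper quartile, and the members that fell then numbered 33 and 28; the 3 members that lost the call with the upper quartile were Ifit2, Ifi35 and Samd9l. The 31 falls ranged from 1.27-fold for Ifi35 and Ifit2 to 4.89-fold for Oas3, and 14 of them were at least 2-fold; these folds are on the FPKM + 1 scale, which understates the change of weakly expressed genes. Both CIH libraries lay below both control libraries in 34 of the 36 tested members and above both in the other 2 (Ifitm2 and Ifitm3), against 38.4% below and 35.9% above among all tested genes. The median log2 change was -0.74 over the 36 tested members and -0.73 over all 42, against -0.01 over all tested genes. Oas3 and Ifih1 passed the filter through the control libraries alone, with CIH means under 1 FPKM. The 6 members under the filter were Mx1, Oasl1, Rsad2, Ifitm1, Herc6 and Cmpk2.

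In the replicate 3 pair the same genes stood the other way round. Of the 42 members, 41 were higher in CIH 3 than in control 3 and 1 was lower (Ifitm2), with 1 library on each side and hence no test. At least 2-fold differences on the FPKM + 1 scale were counted for 35 members upward, against 23.6% of 11620 genes, and for 0 members downward, against 11.3%. At least 4-fold differences upward were counted for 31 members, against 7.13% of genes. The median log2 difference over the 42 members was 2.82, against 0.31 over all 11620 genes, a distance of 2.51. Oas1a, Oas2, Oas3 and Oasl1 were listed at 0 in control 3, so no fold is given for them, and the median without them was also 2.82 (38 members). Scaled by the median of ratios, the pair had 31 members at least 2-fold higher in CIH 3, and scaled to equal totals 39; Ifitm2 turned higher in CIH 3 with equal totals (log2 difference 0.39).

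**Figure D1:**
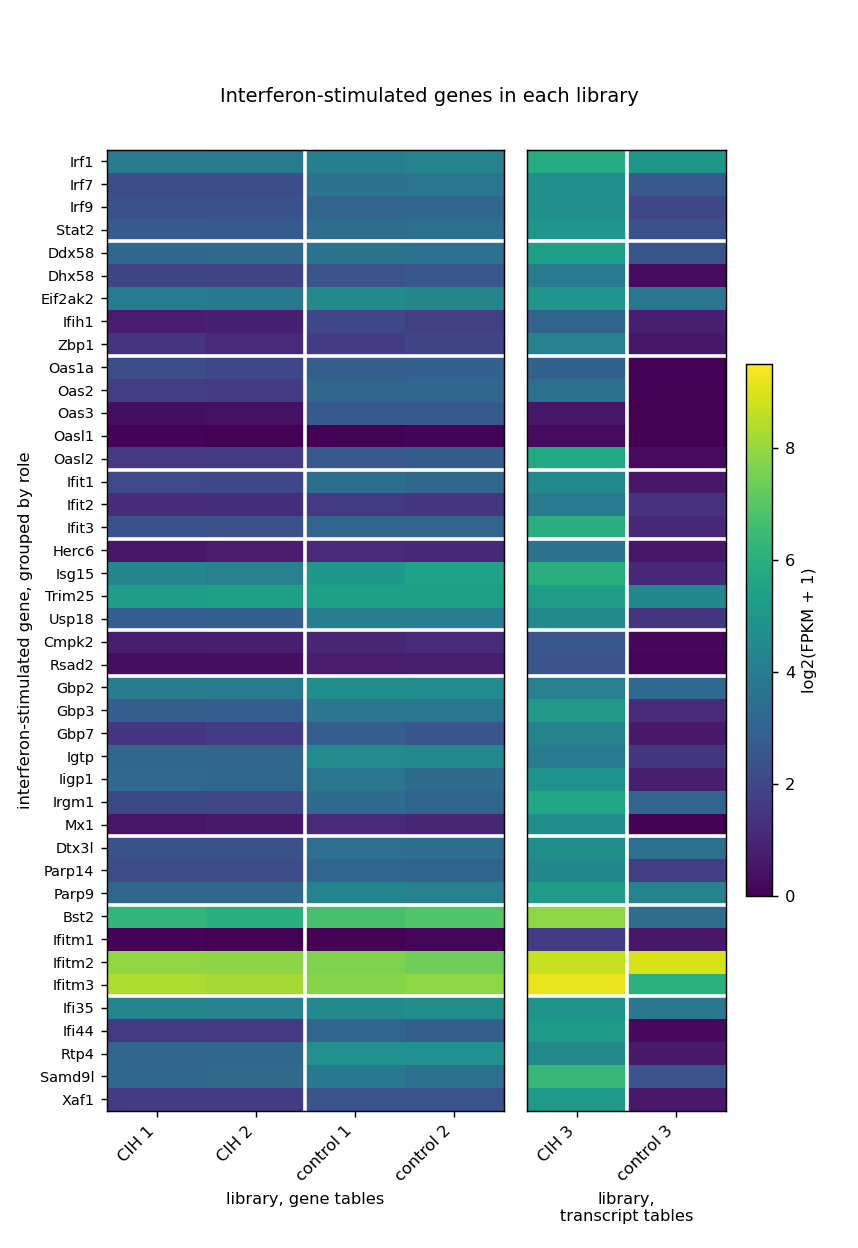
Levels of the 42 interferon-stimulated genes as log2(FPKM + 1), with libraries in columns and genes in rows grouped by role; the left block holds the gene tables (CIH 1, CIH 2, control 1, control 2) and the right block the transcript tables (CIH 3, control 3). Most rows are darker (lower) in CIH 1 and 2 than in control 1 and 2 and lighter (higher) in CIH 3 than in control 3, and Ifitm2 and Ifitm3 are the brightest rows.

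The CIH effect of the replicate 3 pair was set against that of replicates 1 and 2 in a single limma fit. The difference between the effects was more positive in replicate 3 for 39 of the 40 members that could be fitted, against 43.9% of 10976 genes, and more negative for 0, against 22.1%. At an unadjusted p under 0.05, 1 member was more negative (Ifitm2, adjusted p = 0.0618). The 39 differences spanned 0.95 (Trim25) to 6.61 (Oasl2) on the log2 scale. Only the gene tables supply the spread of this fit, which assumes that CIH 3 and control 3 vary no more than those, so its p-values do not establish a difference for groups of 1 library. Of the 36 tested members, 35 had opposite signs in the 2 comparisons (97.2%), against 50.1% of 9845 genes. Called lower in CIH 1 and 2 and at least 2-fold higher in CIH 3 were 28 members of the 35 with both values, against 3.48% of 9741 genes; the 28 made up 8.26% of the 339 genes with this pattern. When all 6 libraries were fitted with the table kind as a covariate, 0 of 40 members passed limma's test, against 0.574% of 10976 genes, and 0 had an unadjusted p under 0.05.

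**Figure D2:**
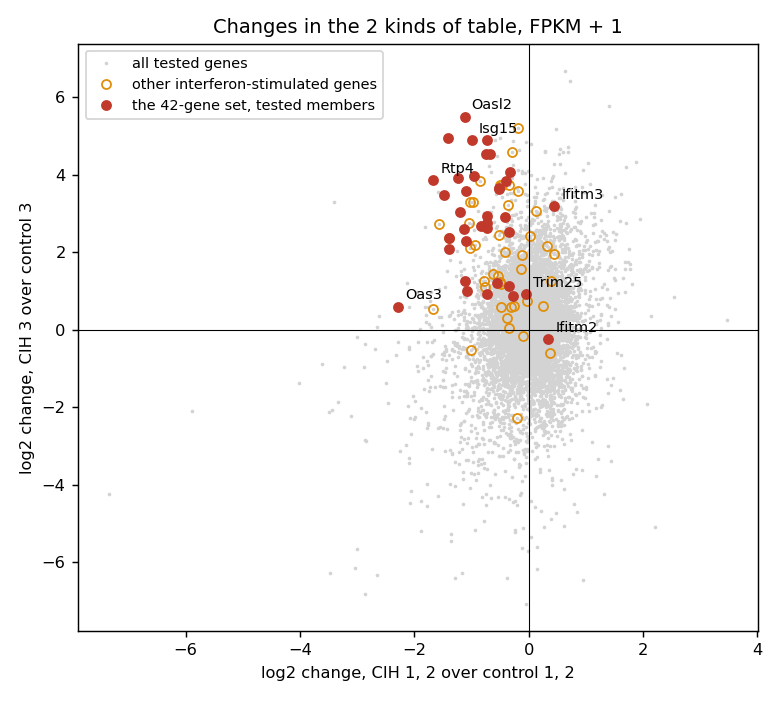
Log2 change of FPKM + 1 in CIH 1, 2 over control 1, 2 (horizontal axis) against CIH 3 over control 3 (vertical axis) for all tested genes (grey), the tested members (filled red) and other interferon-stimulated genes (open orange). Filled points lie mostly in the upper left, with 35 of 36 members opposite in sign, and Ifitm3 lies in the upper right and Ifitm2 in the lower right.

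Of the 4 transcription factors of the response, 3 fell in CIH 1 and 2, and all 4 were higher in CIH 3. Irf7, which drives the amplification of type I interferon production, was at 3.82 and 3.85 FPKM in CIH 1 and 2, against 11.3 and 12.1 FPKM in control 1 and 2. Irf7 fell by 1.39 ± 0.08 on the log2 scale (SE, limma adjusted p = 5.61e-05), and stood at 25.9 FPKM in CIH 3, against 5.33 FPKM in control 3. The control libraries held about the same level as each other, well above both CIH libraries, and the order of the replicate 3 pair was the opposite. Stat2, the partner of IRF9 in the type I complex, was at 5.64 and 5.43 FPKM in CIH 1 and 2, against 9.69 and 10.1 FPKM in control 1 and 2. Stat2 fell by 0.73 ± 0.08 on the log2 scale (SE, limma adjusted p = 0.000694), and stood at 31.2 FPKM in CIH 3, against 4.24 FPKM in control 3. Irf9, the DNA-binding subunit of that complex, had nearly the same pattern as Stat2. Irf9 was at 4.31 and 4.32 FPKM in CIH 1 and 2, against 7.62 and 8.05 FPKM in control 1 and 2. Irf9 fell by 0.73 ± 0.08 on the log2 scale (SE, limma adjusted p = 0.000756), and stood at 26.3 FPKM in CIH 3, against 3.08 FPKM in control 3. Irf1, a factor that both interferon types induce, had a smaller difference that missed the threshold. It was at 14.4 and 13.6 FPKM in CIH 1 and 2, against 16.0 and 18.1 FPKM in control 1 and 2, a log2 change of -0.27 ± 0.09 (SE, limma adjusted p = 0.0538), and stood at 58.5 FPKM in CIH 3, against 31.4 FPKM in control 3. Irf1 was called lower when the libraries were scaled to equal totals (limma adjusted p = 0.0103). Its CIH libraries lay below both control libraries. Such a separation, also given for members below, was met in 38.4% of all tested genes.

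All 5 sensors of viral nucleic acids fell in CIH 1 and 2, against 21.7% of all tested genes. All 5 were at least 2-fold higher in CIH 3, against 23.6% of all genes. Ifih1, the MDA5 sensor of long viral RNA, was at 0.712 and 0.786 FPKM in CIH 1 and 2, against 3.09 and 2.45 FPKM in control 1 and 2. Ifih1 fell by 1.10 ± 0.12 on the log2 scale (SE, limma adjusted p = 0.000703), and stood at 7.43 FPKM in CIH 3, against 0.732 FPKM in control 3. This was the widest fall of the 5 in CIH 1 and 2, and Ifih1 passed the level filter through the control libraries alone. Ddx58, the RIG-I sensor of viral RNA ends, was at 7.96 and 8.62 FPKM in CIH 1 and 2, against 11.8 and 11.0 FPKM in control 1 and 2. Ddx58 fell by 0.41 ± 0.09 on the log2 scale (SE, limma adjusted p = 0.00954), and stood at 39.7 FPKM in CIH 3, against 4.48 FPKM in control 3. Ddx58 lost its call without CIH 1 (limma adjusted p = 0.0739). Dhx58, which regulates the other two helicases and is also called LGP2, was at 2.93 and 2.91 FPKM in CIH 1 and 2, against 4.36 and 4.94 FPKM in control 1 and 2. Dhx58 fell by 0.52 ± 0.10 on the log2 scale (SE, limma adjusted p = 0.00508), and stood at 14.5 FPKM in CIH 3, against 0.228 FPKM in control 3. Eif2ak2, the PKR kinase that stops translation on binding viral RNA, was at 13.8 and 13.5 FPKM in CIH 1 and 2, against 22.4 and 18.8 FPKM in control 1 and 2. Eif2ak2 fell by 0.56 ± 0.10 on the log2 scale (SE, limma adjusted p = 0.00532), and stood at 30.0 FPKM in CIH 3, against 12.3 FPKM in control 3. Eif2ak2 was the most abundant of the 5 in the gene tables, and its CIH libraries lay below both controls. Zbp1, a sensor of Z-form nucleic acids, was at 1.72 and 1.21 FPKM in CIH 1 and 2, against 2.19 and 2.90 FPKM in control 1 and 2. Zbp1 fell by 0.52 ± 0.15 on the log2 scale (SE, limma adjusted p = 0.0273), and stood at 17.8 FPKM in CIH 3, against 0.513 FPKM in control 3. The Zbp1 call was lost without CIH 2 (limma adjusted p = 0.13) and without control 2 (limma adjusted p = 0.0763).

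The oligoadenylate synthetases make short oligoadenylates that activate RNase L, which degrades RNA in infected cells. All 4 tested members of 5 fell, against 21.7% of all tested genes, and Oas3 had the largest fall of the 42 genes. Oas3 was at 0.292 and 0.351 FPKM in CIH 1 and 2, against 5.41 and 5.52 FPKM in control 1 and 2. Oas3 fell by 2.29 ± 0.10 on the log2 scale (SE, limma adjusted p = 1.80e-05). Behind these values stood 54 and 68 fragments in CIH 1 and 2, against 983 and 1091 in control 1 and 2, with no overlap between the groups. Oas3 passed the level filter through the control libraries alone. Oas2 was at 2.31 and 2.16 FPKM in CIH 1 and 2, against 7.75 and 8.35 FPKM in control 1 and 2. Oas2 fell by 1.48 ± 0.09 on the log2 scale (SE, limma adjusted p = 5.76e-05). Oas1a was at 3.77 and 3.09 FPKM in CIH 1 and 2, against 6.08 and 6.56 FPKM in control 1 and 2. Oas1a fell by 0.73 ± 0.11 on the log2 scale (SE, limma adjusted p = 0.00203). The 3 genes lie together within chr5:120730333-120907521 (GRCm38), and their falls differed in size, with Oas3 and Oas1a at the ends. In CIH 3, Oas2 was at 10.2 FPKM, Oas1a at 6.64 FPKM and Oas3 at 0.505 FPKM, and all 3 were listed at 0 in control 3. Oasl2, an OAS-like gene with a ubiquitin-like tail, was at 1.99 and 2.06 FPKM in CIH 1 and 2, against 5.26 and 5.94 FPKM in control 1 and 2. Oasl2 fell by 1.12 ± 0.10 on the log2 scale (SE, limma adjusted p = 0.000237), and stood at 53.0 FPKM in CIH 3, against 0.199 FPKM in control 3. This was the largest log2 difference of the 42 members in the replicate 3 pair. Oasl1, the neighbour of Oasl2 on chromosome 5, rested on 1 to 4 fragments in each gene table. The Oas1 genes form a family of close copies, so that the split of reads between Oas1a and its relatives is uncertain.

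Among the IFIT proteins, IFIT1 binds viral RNA that lacks the cap modifications of host mRNA. All 3 IFIT members fell in CIH 1 and 2, against 21.7% of all tested genes. All 3 were at least 4-fold higher in CIH 3, against 7.13% of all genes. Ifit1 was at 3.24 and 3.20 FPKM in CIH 1 and 2, against 9.83 and 8.12 FPKM in control 1 and 2. Ifit1 fell by 1.24 ± 0.11 on the log2 scale (SE, limma adjusted p = 0.000219), and stood at 21.2 FPKM in CIH 3, against 0.476 FPKM in control 3. Both control libraries were well above both CIH libraries. Ifit3 was at 4.27 and 4.11 FPKM in CIH 1 and 2, against 7.50 and 7.64 FPKM in control 1 and 2. Ifit3 fell by 0.72 ± 0.08 on the log2 scale (SE, limma adjusted p = 0.000771), and stood at 61.0 FPKM in CIH 3, against 1.10 FPKM in control 3. Ifit2 had the smallest fall of the 3. Ifit2 was at 1.30 and 1.36 FPKM in CIH 1 and 2, against 2.08 and 1.86 FPKM in control 1 and 2. Ifit2 fell by 0.35 ± 0.11 on the log2 scale (SE, limma adjusted p = 0.0383), and stood at 13.6 FPKM in CIH 3, against 1.57 FPKM in control 3. The Ifit2 call was lost without CIH 1, without CIH 2 or without control 1 (limma adjusted p = 0.111 to 0.155). The 3 genes lie within chr19:34550694-34650009. Ifit3 has a near-identical neighbour, Ifit3b, and reads may be split between them. Ifit3b itself fell by 0.35 ± 0.10 on the log2 scale (SE, limma adjusted p = 0.0313).

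ISG15 is a ubiquitin-like protein that is joined to other proteins. In this system 2 of the 3 tested members fell, against 21.7% of all tested genes. Isg15 was at 20.2 and 16.7 FPKM in CIH 1 and 2, against 32.6 and 43.4 FPKM in control 1 and 2. Isg15 fell by 0.998 ± 0.15 on the log2 scale (SE, limma adjusted p = 0.00234), and stood at 60.8 FPKM in CIH 3, against 1.08 FPKM in control 3. Its control libraries were further apart than its CIH libraries, without overlap. Usp18, the protease that removes ISG15 and that also dampens signalling at the type I receptor, was at 6.15 and 6.45 FPKM in CIH 1 and 2, against 16.1 and 15.5 FPKM in control 1 and 2. Usp18 fell by 1.20 ± 0.08 on the log2 scale (SE, limma adjusted p = 9.47e-05), and stood at 22.7 FPKM in CIH 3, against 1.87 FPKM in control 3. The E3 ligase Trim25, which activates RIG-I, was at 39.0 and 41.1 FPKM in CIH 1 and 2, against 41.3 and 41.4 FPKM in control 1 and 2, with a log2 change of -0.04 ± 0.09 (SE, limma adjusted p = 0.712) that turned positive with upper-quartile scaling. Trim25 stood at 39.5 FPKM in CIH 3, against 20.6 FPKM in control 3, the only gene of these 4 under a 2-fold difference there. Herc6, the main ISG15 ligase in mice, was under the level filter, at 0.547 and 0.643 FPKM in CIH 1 and 2, against 1.18 and 1.10 FPKM in control 1 and 2. Herc6 stood at 11.1 FPKM in CIH 3, against 0.497 FPKM in control 3. Its CIH libraries lay below both controls in the gene tables, but this was not tested. Herc6 shares 13.7% of its exon bases with Gm45193 on the same strand, so its reads may be split.

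Rsad2 (viperin) makes a chain-terminating nucleotide from the product of its neighbour Cmpk2, and both were under the filter and not tested. Rsad2 was at 0.273 and 0.294 FPKM in CIH 1 and 2, against 0.636 and 0.717 FPKM in control 1 and 2. It rested on 31 and 35 fragments in CIH 1 and 2, against 71 and 87 in control 1 and 2, and stood at 4.68 FPKM in CIH 3, against 0.0926 FPKM in control 3. Cmpk2 was at 0.670 and 0.718 FPKM in CIH 1 and 2, against 1.04 and 1.20 FPKM in control 1 and 2, and stood at 5.05 FPKM in CIH 3, against 0.166 FPKM in control 3. For both genes, at chr12:26442746-26479837, the CIH libraries lay below the controls in the gene tables and above in the replicate 3 pair.

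The interferon-inducible GTPases attack the membranes around intracellular pathogens or the particles of viruses. Of the 7 members, 5 of 6 tested fell, against 21.7% of all tested genes. At least 4-fold higher in CIH 3 were 6 of the 7, against 7.13% of all genes. Igtp, an immunity-related GTPase also called Irgm3, was at 8.13 and 7.77 FPKM in CIH 1 and 2, against 22.8 and 22.2 FPKM in control 1 and 2. Igtp fell by 1.39 ± 0.08 on the log2 scale (SE, limma adjusted p = 5.15e-05), and stood at 13.7 FPKM in CIH 3, against 1.87 FPKM in control 3. This was the largest fall among the GTPases. Igtp shares 162 exon bases with Irgm2 on the same strand, so its reads may be split. Irgm1, a regulator of this GTPase family, was at 3.13 and 3.11 FPKM in CIH 1 and 2, against 8.90 and 7.27 FPKM in control 1 and 2. Irgm1 fell by 1.13 ± 0.11 on the log2 scale (SE, limma adjusted p = 0.000355), and stood at 50.5 FPKM in CIH 3, against 7.60 FPKM in control 3. The guanylate-binding proteins Gbp2, Gbp3 and Gbp7 lie together at chr3:142530342-142638008 and all fell. Gbp2 was at 14.7 and 13.8 FPKM in CIH 1 and 2, against 25.3 and 23.3 FPKM in control 1 and 2. Gbp2 fell by 0.73 ± 0.09 on the log2 scale (SE, limma adjusted p = 0.00101), and stood at 16.8 FPKM in CIH 3, against 8.40 FPKM in control 3. Gbp2 was the most abundant of the 3 in the gene tables and the only GTPase of the 7 under a 2-fold difference on the FPKM + 1 scale in the replicate 3 pair. Gbp3 was at 6.26 and 6.07 FPKM in CIH 1 and 2, against 12.7 and 12.9 FPKM in control 1 and 2. Gbp3 fell by 0.95 ± 0.08 on the log2 scale (SE, limma adjusted p = 0.000221), and stood at 34.0 FPKM in CIH 3, against 1.26 FPKM in control 3. The 2 libraries of each group lay close together for Gbp3. Gbp7 was at 1.85 and 2.19 FPKM in CIH 1 and 2, against 6.07 and 4.86 FPKM in control 1 and 2. Gbp7 fell by 1.09 ± 0.12 on the log2 scale (SE, limma adjusted p = 0.000673), and stood at 18.1 FPKM in CIH 3, against 0.613 FPKM in control 3. These genes have close relatives, and the split of reads among them is uncertain. Gbp7 also shares 11.3% of its exon bases with Gm43802 on the same strand. Iigp1, a GTPase that loads onto parasite vacuoles, was at 8.51 and 8.14 FPKM in CIH 1 and 2, against 12.2 and 9.26 FPKM in control 1 and 2, and its log2 change of -0.32 ± 0.13 (SE, limma adjusted p = 0.0778) missed the threshold. Without control 2 Iigp1 passed it (-0.50, limma adjusted p = 0.00344), as it did with equal totals (limma adjusted p = 0.0202). Iigp1 stood at 27.9 FPKM in CIH 3, against 0.726 FPKM in control 3. Mx1, a dynamin-like GTPase against viruses, was under the filter, at 0.495 and 0.607 FPKM in CIH 1 and 2, against 1.19 and 1.01 FPKM in control 1 and 2. Behind Mx1 stood 49 and 63 fragments in CIH 1 and 2, against 116 and 107 in control 1 and 2, and it was at 24.6 FPKM in CIH 3, against 0.0502 FPKM in control 3.

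Parp9, Dtx3l and Parp14 are neighbours that encode a pair of ADP-ribosyltransferases and the E3 ligase that binds PARP9. All 3 fell in CIH 1 and 2, against 21.7% of all tested genes. Dtx3l, the E3 ligase, was at 4.07 and 4.13 FPKM in CIH 1 and 2, against 10.2 and 9.83 FPKM in control 1 and 2. Dtx3l fell by 1.11 ± 0.08 on the log2 scale (SE, limma adjusted p = 0.000133), and stood at 25.8 FPKM in CIH 3, against 10.3 FPKM in control 3. Parp9, its partner, was at 7.71 and 7.86 FPKM in CIH 1 and 2, against 18.7 and 16.7 FPKM in control 1 and 2. Parp9 fell by 1.09 ± 0.09 on the log2 scale (SE, limma adjusted p = 0.000201), and stood at 36.6 FPKM in CIH 3, against 17.9 FPKM in control 3. Parp9 was just under 2-fold higher in CIH 3 on the FPKM + 1 scale. Parp14 was at 3.66 and 3.73 FPKM in CIH 1 and 2, against 7.55 and 7.25 FPKM in control 1 and 2. Parp14 fell by 0.84 ± 0.08 on the log2 scale (SE, limma adjusted p = 0.00044), and stood at 20.3 FPKM in CIH 3, against 2.32 FPKM in control 3. Dtx3l and Parp9 face away from each other and share 458 exon bases on opposite strands, and the sources used here do not say whether counting used strand, so reads there may count for either gene. The 3 genes lie within chr16:35832874-35972605.

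Among the membrane restriction factors the members went different ways, with 1 rise and 1 fall among 3 tested. The shares among all tested genes were 20.2% and 21.7%. Ifitm3, which blocks the fusion of viruses in endosomes, was at 323 and 294 FPKM in CIH 1 and 2, against 218 and 233 FPKM in control 1 and 2. Ifitm3 rose by 0.45 ± 0.11 on the log2 scale (SE, limma adjusted p = 0.0152), and stood at 602 FPKM in CIH 3, against 65.7 FPKM in control 3. Ifitm3 was the most abundant member in the gene tables and the only one that rose in replicates 1 and 2. The call of Ifitm3 was lost without CIH 1 (limma adjusted p = 0.0771), without control 1 (limma adjusted p = 0.0827) and with no level filter (limma adjusted p = 0.0772). Ifitm2, its neighbour with a like role, was at 242 and 230.3 FPKM in CIH 1 and 2, against 204 and 169 FPKM in control 1 and 2, and its log2 change of 0.35 ± 0.12 (SE, limma adjusted p = 0.0557) missed the threshold. It passed with upper-quartile scaling (limma adjusted p = 0.00666) and without control 1 (limma adjusted p = 0.0331). Ifitm2 stood at 413 FPKM in CIH 3, against 487 FPKM in control 3. Ifitm2 shares 40.9% of its exon bases with Gm45717 on the same strand, so its reads may be split. Bst2, the tetherin that holds budding viruses at the cell surface, was at 75.1 and 63.9 FPKM in CIH 1 and 2, against 105 and 119 FPKM in control 1 and 2. Bst2 fell by 0.68 ± 0.12 on the log2 scale (SE, limma adjusted p = 0.00417), and stood at 238 FPKM in CIH 3, against 9.42 FPKM in control 3. As deposited, Ifitm3 was the only tested member that was higher in CIH in both comparisons; Trim25 joined it with upper-quartile scaling, and Ifitm2 with the replicate 3 pair at equal totals. Ifitm1, another gene of the cluster at chr7:140954837-141010770, had 0 to 4 fragments in the gene tables and was at 2.15 FPKM in CIH 3, against 0.528 FPKM in control 3.

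All 5 of the remaining effectors fell in CIH 1 and 2, against 21.7% of all tested genes. All 5 were at least 2-fold higher in CIH 3, against 23.6% of all genes. Rtp4, which in mice dampens the interferon response through TBK1, was at 7.86 and 7.75 FPKM in CIH 1 and 2, against 27.0 and 27.0 FPKM in control 1 and 2. Rtp4 fell by 1.67 ± 0.08 on the log2 scale (SE, limma adjusted p = 2.14e-05), and stood at 21.9 FPKM in CIH 3, against 0.591 FPKM in control 3. The libraries of each group lay close together for Rtp4. Rtp4 shares 13.9% of its exon bases with Gm45338 on the same strand, so its reads may be split. Ifi44, an interferon-induced cytosolic protein, was at 2.06 and 1.96 FPKM in CIH 1 and 2, against 7.65 and 6.35 FPKM in control 1 and 2. Ifi44 fell by 1.41 ± 0.11 on the log2 scale (SE, limma adjusted p = 0.00014), and stood at 34.9 FPKM in CIH 3, against 0.169 FPKM in control 3. Xaf1, a pro-apoptotic factor that antagonises XIAP, was at 2.23 and 2.20 FPKM in CIH 1 and 2, against 4.35 and 4.43 FPKM in control 1 and 2. Xaf1 fell by 0.75 ± 0.09 on the log2 scale (SE, limma adjusted p = 0.00097), and stood at 34.9 FPKM in CIH 3, against 0.566 FPKM in control 3. In both genes the controls lay above the CIH libraries without overlap. Samd9l, a restriction factor of viral translation, was at 8.28 and 8.79 FPKM in CIH 1 and 2, against 13.2 and 10.2 FPKM in control 1 and 2. Samd9l fell by 0.40 ± 0.12 on the log2 scale (SE, limma adjusted p = 0.035), and stood at 80.5 FPKM in CIH 3, against 4.72 FPKM in control 3. The Samd9l call was lost without CIH 1, without CIH 2 or without control 1 (limma adjusted p = 0.0724 to 0.147). Ifi35, which modulates the innate response, was at 19.0 and 17.6 FPKM in CIH 1 and 2, against 22.1 and 25.0 FPKM in control 1 and 2. Ifi35 fell by 0.34 ± 0.10 on the log2 scale (SE, limma adjusted p = 0.027), and stood at 29.4 FPKM in CIH 3, against 13.0 FPKM in control 3. The Ifi35 call was lost in every leave-one-out fit but that without control 1 (limma adjusted p = 0.0665 to 0.131).

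**Figure D3:**
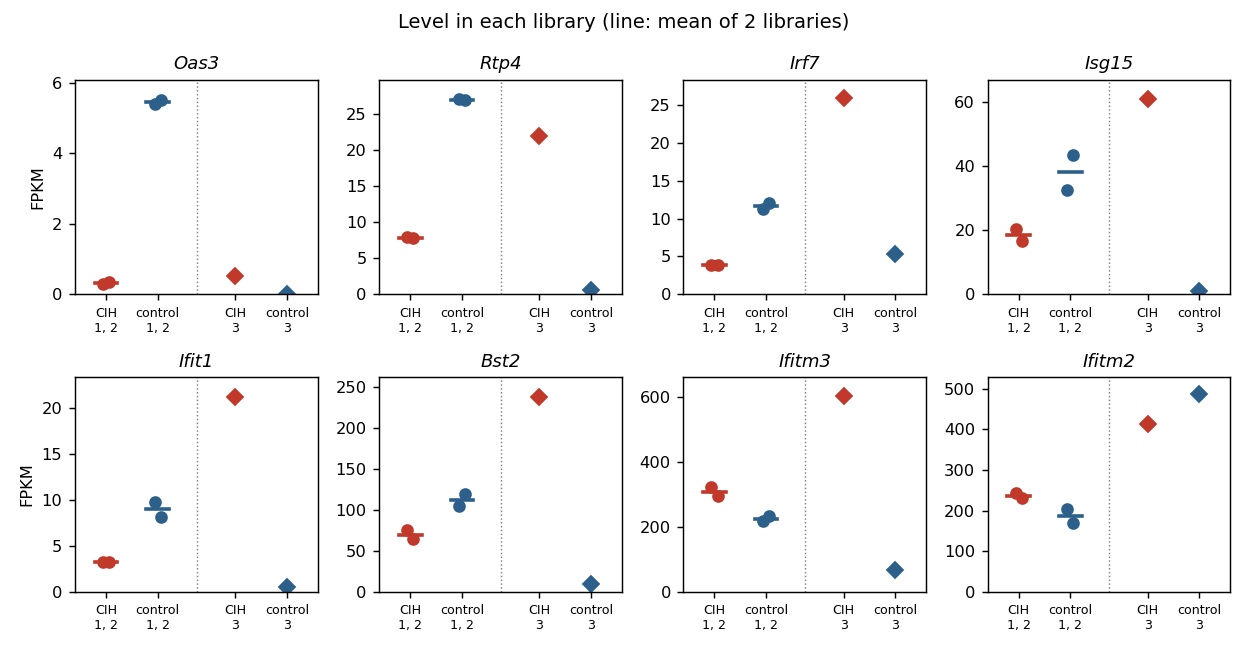
FPKM of 8 members in each library, with gene tables as circles left of the dotted line (horizontal lines are means of 2 libraries) and transcript tables as diamonds right of it; the vertical scale starts at 0 and differs between panels, and levels are not comparable across the dotted line. Oas3, Rtp4, Irf7, Isg15, Ifit1 and Bst2 are lower in CIH 1, 2 and higher in CIH 3, Ifitm3 is higher in both, and Ifitm2 is higher in CIH 1, 2 and lower in CIH 3.

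**Figure D4:**
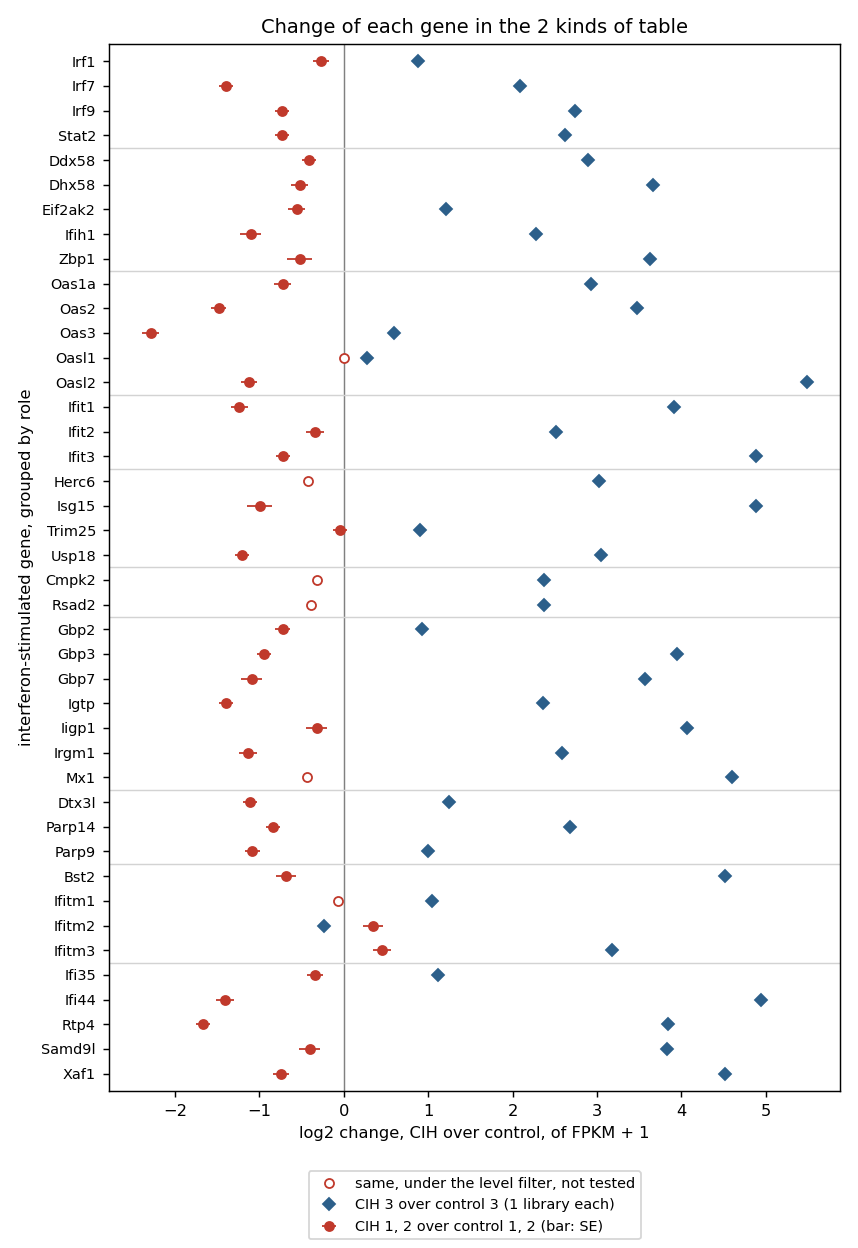
Log2 change of FPKM + 1, CIH over control, for each of the 42 members in rows grouped by role: filled circles with SE bars are the 36 members tested in replicates 1 and 2, open circles the 6 under the level filter, and diamonds the replicate 3 pair. All circles except those of Ifitm2, Ifitm3 and Oasl1 lie left of 0, and all diamonds except that of Ifitm2 lie right of it; the diamonds of Oas1a, Oas2, Oas3 and Oasl1 rest on a value of 0 in control 3.

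The genes that carry the signal to these targets were read from a list of 32 receptors, kinases, sensors and feedback regulators. Of 24 tested in replicates 1 and 2, 9 fell, 2 rose and 13 did not pass the test, where 21.7% of all tested genes fell and 20.2% rose. The median log2 change of the 24 was -0.10. Among receptors, Ifngr1, the ligand-binding chain of the interferon gamma receptor, was at 67.0 and 59.4 FPKM in CIH 1 and 2, against 102 and 102 FPKM in control 1 and 2, and fell by 0.69 ± 0.10 on the log2 scale (SE, limma adjusted p = 0.00196). Ifnar2 and Il10rb, chains of the type I and type III receptors, fell by 0.33 and 0.42 on the log2 scale, with limma adjusted p = 0.0306 and 0.00815. Jak2, the kinase of the interferon gamma receptor, was at 5.69 and 5.89 FPKM in CIH 1 and 2, against 11.5 and 9.92 FPKM in control 1 and 2, and fell by 0.78 ± 0.10 on the log2 scale (SE, limma adjusted p = 0.00104). Stat3, a factor shared with the interleukin 6 family, fell by 0.58 ± 0.08 on the log2 scale (SE, limma adjusted p = 0.00201). The kinases Jak1 and Tyk2, the factor Irf3 and the adaptor Mavs were among the 13 that missed the threshold. Tlr3, a sensor of viral RNA in endosomes, fell by 0.46 ± 0.12 on the log2 scale (SE, limma adjusted p = 0.0203), and Ptpn11, Pias1 and Irf2bp2, regulators of signalling and transcription, had log2 changes of -0.28, -0.30 and -0.35 (limma adjusted p = 0.0345, 0.0418 and 0.0387). The 2 genes that rose were Tmem173 (STING), the adaptor of the DNA-sensing pathway, and Socs3, a feedback inhibitor of JAK kinases. Tmem173 was at 5.83 and 4.88 FPKM in CIH 1 and 2, against 1.89 and 2.10 FPKM in control 1 and 2, and rose by 1.08 ± 0.11 on the log2 scale (SE, limma adjusted p = 0.000442). Socs3 was at 7.91 and 7.74 FPKM in CIH 1 and 2, against 3.52 and 4.14 FPKM in control 1 and 2, and rose by 0.87 ± 0.10 on the log2 scale (SE, limma adjusted p = 0.000641). The count of falls was 4 without CIH 1, 5 without control 1 and 4 with upper-quartile scaling.

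In the replicate 3 pair, 21 of the 32 signalling genes were higher in CIH 3, 7 at least 2-fold, and 1 was at least 2-fold lower (Ifngr1), on the FPKM + 1 scale, where 23.6% of all genes were at least 2-fold higher and 11.3% at least 2-fold lower. The share of signalling genes at least 2-fold higher was thus no larger than that of all genes. Tmem173 was at 7.74 FPKM in CIH 3, against 0.958 FPKM in control 3. Socs3 was at 16.4 FPKM in CIH 3, against 1.53 FPKM in control 3, and Tlr3 at 12.3 FPKM in CIH 3, against 2.28 FPKM in control 3. Tmem173 and Socs3 were thus higher in CIH in both comparisons, and Ifngr1 was lower in both. Stat3, Ptpn11 and Il10rb were also lower in both, with small log2 differences of -0.19, -0.08 and -0.02 in the replicate 3 pair. The other called falls (Ifnar2, Jak2, Tlr3, Pias1 and Irf2bp2) were higher in CIH 3, Ifnar2 by only 0.01 on the log2 scale. Ifngr1 was at 31.0 FPKM in CIH 3, against 84.3 FPKM in control 3. The difference between the effects was more positive in replicate 3 for 18 of 26 signalling genes and more negative for 3, against 43.9% and 22.1% of all genes.

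**Figure D5:**
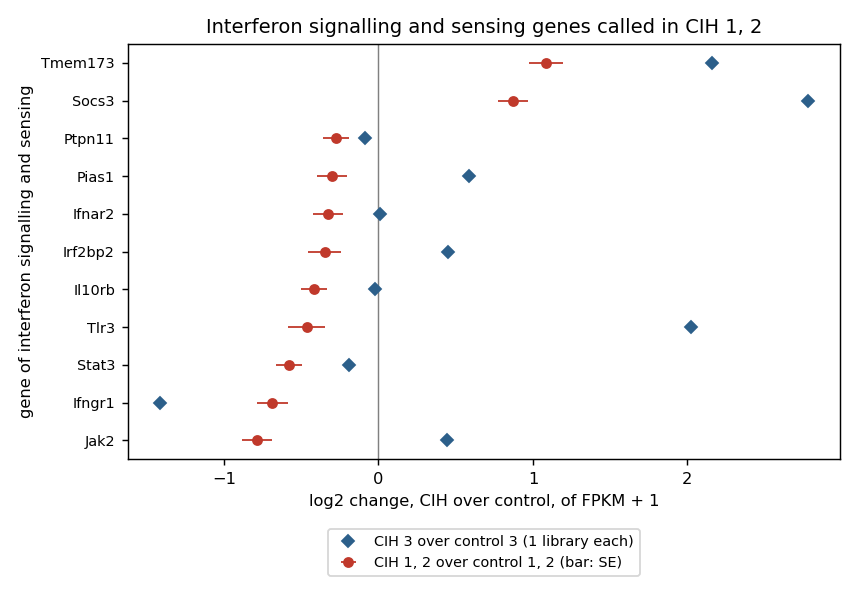
Log2 change of FPKM + 1, CIH over control, of the 9 genes of interferon signalling and sensing that fell and the 2 that rose in replicates 1 and 2 (limma adjusted p under 0.05): circles with SE bars are replicates 1 and 2 and diamonds the replicate 3 pair. Tmem173 and Socs3 lie right of 0 in both comparisons. The 9 genes that fell lie left of 0 in replicates 1 and 2. Of these, Ifngr1, Stat3, Ptpn11 and Il10rb also lie left of 0 in the replicate 3 pair, with Ptpn11 and Il10rb close to 0.

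The interferons themselves were hardly seen. All 10 interferon genes of the list (Ifnb1, Ifna1, Ifna2, Ifna4, Ifna5, Ifne, Ifng, Ifnl2, Ifnl3 and Ifnk) were listed at 0 in CIH 1 and 2 and in control 1 and 2. For Ifnb1, 3 fragments, the limit that a count of 0 allows, would have been 0.143 to 0.156 FPKM in these libraries, which covers counting error only. In the transcript tables Ifnb1 was at 0.127 FPKM, Ifne at 0.304 FPKM and Ifnk at 0.114 FPKM in CIH 3, and all 3 were listed at 0 in control 3. Ifng was listed at 0 in CIH 3, against 0.0865 FPKM in control 3.

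A further list held 64 interferon-stimulated genes outside the 42. Of 44 tested, 27 fell, 2 rose and 15 did not pass the test, with a median log2 change of -0.42, where 21.7% of all tested genes fell and 20.2% rose. With no level filter 18 fell. The list was written with earlier results of these data known and its direction is not independent evidence. The 6 largest falls were those of Isg20, an RNA exonuclease, the GTPases Ifi47 and Irgm2, the ATPase Tor3a, the apolipoprotein L gene Apol9b and Slfn8, a Schlafen gene. Isg20 was at 3.08 and 2.66 FPKM in CIH 1 and 2, against 10.9 and 11.9 FPKM in control 1 and 2, and fell by 1.68 ± 0.10 on the log2 scale (SE, limma adjusted p = 4.59e-05). Ifi47 was at 1.73 and 1.49 FPKM in CIH 1 and 2, against 6.49 and 6.91 FPKM in control 1 and 2, and fell by 1.56 ± 0.10 on the log2 scale (SE, limma adjusted p = 6.24e-05). Tor3a was at 5.85 and 5.41 FPKM in CIH 1 and 2, against 16.1 and 16.7 FPKM in control 1 and 2, and fell by 1.39 ± 0.09 on the log2 scale (SE, limma adjusted p = 5.96e-05). The falls of Irgm2, Apol9b and Slfn8 were close to each other, with log2 changes of -1.04, -1.02 and -1.02 (limma adjusted p = 0.000275, 0.00298 and 0.0013). Slfn8 passed the level filter through the control libraries alone, with a CIH mean of 0.974 FPKM, against a control mean of 3.02 FPKM. Apol9a, also among the 27 that fell, did so too. Its CIH mean was 0.816 FPKM, against a control mean of 2.59 FPKM. Irgm2 shares 162 exon bases on the same strand with the member Igtp. The 2 genes that rose were Ube2l6, the conjugating enzyme of ISG15, and Ifi30, a lysosomal thiol reductase. Ube2l6 was at 14.6 and 13.0 FPKM in CIH 1 and 2, against 9.91 and 9.67 FPKM in control 1 and 2, and rose by 0.45 ± 0.09 on the log2 scale (SE, limma adjusted p = 0.00723). Ifi30 rose by 0.39 ± 0.09 on the log2 scale (SE, limma adjusted p = 0.0111). Ube2l6 therefore went the other way from Isg15 and Usp18 in CIH 1 and 2. Of the 64 genes, 61 were listed in the transcript tables, with 55 higher in CIH 3, 41 at least 2-fold higher and 1 at least 2-fold lower (Ifi27), against 23.6% and 11.3% of all genes past these folds. Isg20 was at 7.11 FPKM in CIH 3, against 4.65 FPKM in control 3, Ifi47 at 7.19 FPKM in CIH 3, against 0.249 FPKM in control 3, and Tor3a at 31.9 FPKM in CIH 3, against 5.38 FPKM in control 3. Ube2l6 was at 20.8 FPKM in CIH 3, against 4.59 FPKM in control 3, and Ifi27 at 67.2 FPKM in CIH 3, against 328 FPKM in control 3. Of the 42 genes of this list with both values, 19 were called lower in CIH 1 and 2 and at least 2-fold higher in CIH 3, against 3.48% of 9741 genes. The difference between the effects was more positive in replicate 3 for 49 of 53 and more negative for 2, against 43.9% and 22.1% of all genes.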

How the data were processed

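Messenger RNA levels of 6 libraries, 3 CIH and 3 control, were analysed. The authors deposited FPKM values, a unit read from the values because the headers name only samples. Per the submitters' processing notes, featureCounts 1.5.0-p3, DESeq 1.8.3 and GRCm38 are listed, with no role stated; no aligner is named there (not given in the sources used here). In the gene tables (54532 IDs), FPKM times exon length gave whole fragments for 98.4% to 98.6% of genes under 50 fragments (within 0.05). Their median-of-ratios size factors were all 1.00000000 over 16734 genes, the values that scaling these 4 libraries to each other would leave. The transcript tables of replicate 3 (50660 entries, 21950 gene IDs) were summed per gene ID, and their depth is unknown.

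Symbols and coordinates came from GENCODE mouse release M21 (GRCm38) and promoters from RefSeq (GRCm38.p6). CIH 1 and 2 were compared with control 1 and 2 by limma 3.58.1 (R 4.3.3; empirical Bayes with trend) on log2(FPKM + 1) over the 10981 genes that averaged 1 FPKM or more, with Benjamini-Hochberg adjustment. A count test was not the main test because the values are FPKM. CIH 3 and control 3 have 1 library each and no test. Figures were drawn with matplotlib 3.10.9 in Python 3.11.15.

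The members and the gene lists were chosen with earlier results of these data known. Members were named where they passed the test, where their mean over the gene tables was at least 10 FPKM, or where CIH 3 and control 3 differed at least 4-fold; the remaining 2 (Oasl1 and Ifitm1) are given beside their neighbours. From the other lists, called signalling genes and the 6 largest changes each way among called genes were named; the other genes named from them were chosen after their values were seen, and some genes of these lists are not reported here. Alternatives were another pseudocount, no filter, other scalings, shared gene IDs only, a replicate block, recovered fragments with voom, a fit of all 6 libraries, the largest transcript of a gene and leaving out each gene table. Intervals and limits cover counting error only.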

Additional observations from a re-analysis of the deposited data

Results flagged for a closer look

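In a single limma fit the CIH effect on the interferon-stimulated genes was set against itself in the replicate 3 pair and in replicates 1 and 2. Replicate 3 has 1 library in each group, so the p-values of this fit take their spread from the 4 gene tables alone and do not establish a difference between the replicates. Of 40 members fitted, 39 were more positive in the replicate 3 pair and 0 more negative, with 43.9% and 22.1% of all genes going these ways. Among the interferon signalling genes, 18 of 26 were more positive in replicate 3 and 3 more negative. Among the other interferon-stimulated genes, 49 of 53 were more positive and 2 more negative. The kind of table, the processing behind it and the replicate cannot be told apart, and the labels do not settle whether replicate 3 came from the same experiment or whether both of its libraries carry the right label. The 10 adipocyte markers summed to 644 FPKM in CIH 3, against 29703 FPKM in control 3, and to 6987 and 6161 FPKM in CIH 1 and 2, against 7657 and 8196 FPKM in control 1 and 2, and their part in this result was not tested. The count of 39 was also found with a pseudocount of 0.1 FPKM, without a trend, under the 3 scalings, with the largest transcript of each gene and without each gene table in turn, and it was 41 with no filter.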

How the results depend on the processing

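In replicates 1 and 2 the count of members that fell was 31 as reported, and 27 to 30 when 1 library was left out; the count that rose was 1, and 0 to 1 in those fits (0 without CIH 1). Among all genes, 1458 to 2286 fell and 1107 to 2305 rose with 1 library left out, the lowest of both without CIH 1. For the other interferon-stimulated genes these ranges were 19 to 26 lower and 0 to 3 higher, and for the signalling genes 4 to 6 lower and 2 higher in each fit. With no level filter, 28 members fell and 0 rose, 1418 genes fell and 1122 rose, 5 signalling genes fell and 4 rose, and 18 of the other interferon-stimulated genes fell and 1 rose. Upper-quartile scaling gave 1498 genes lower and 3361 higher (30.8% of calls lower, against 51.9% as reported and 68.7% with equal totals), 28 members lower and 2 higher, 4 signalling genes lower and 5 other interferon-stimulated genes higher, and the log2 change of Trim25 turned to 0.10; the all-gene median moved to 0.12 with it and to -0.12 with equal totals. The members that rose were also 2 with only shared gene IDs, without a trend and with voom on recovered fragments (33 lower). The median log2 change of the members was -0.91 with a pseudocount of 0.1 FPKM, -0.85 with equal totals, -0.62 with the upper quartile and -0.95 with voom. In the replicate 3 pair the median was 3.36 with that pseudocount (3.02 relative to all genes), 3.24 with equal totals (2.37 relative to all genes), 2.43 with the median of ratios and 2.73 with the upper quartile, and Ifitm2 alone turned, to 0.39 with equal totals.

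When all 6 libraries were fitted with the table kind as a covariate, 43 genes fell and 20 rose, and 0 members, 0 signalling genes and 0 other interferon-stimulated genes were called in either direction. The members' median turned to 0.47, and the log2 change turned positive for 28 members: 0.38 for Stat2, 0.11 for Irf1, 0.43 for Irf9, 0.48 for Ifit1, 0.61 for Ifit2, 1.15 for Ifit3, 0.96 for Isg15, 0.49 for Oas1a, 0.17 for Oas2, 1.08 for Oasl2, 0.21 for Usp18, 1.05 for Bst2, 0.71 for Ifi44, 0.14 for Ifi35, 0.17 for Rtp4, 0.69 for Ddx58, 0.026 for Ifih1, 0.87 for Dhx58, 0.69 for Gbp3, 0.46 for Gbp7, 0.33 for Parp14, 0.27 for Trim25, 1.01 for Samd9l, 1.01 for Xaf1, 0.032 for Eif2ak2, 0.86 for Zbp1, 0.10 for Irgm1 and 1.14 for Iigp1. The cause of these changes was not tested. Depth limits the values of Oasl1, Ifitm1 and Rsad2.

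The groups share replicate numbers. Within the gene tables the deviations of same-numbered libraries correlated at -0.13. Over all 6 libraries they correlated at 0.529, 0.587 and 0.581, while crossed numbers gave 0.567 and 0.568. There each group was centred on 1 mean over both kinds of table. The difference between the kinds thus enters same and crossed numbers alike, and these correlations do not bear on pairing. With 2 libraries per group in the gene tables, these values cannot settle whether same-numbered libraries are paired. The labels give only the shared number. The replicate block gave 30 members lower and 1 higher, 2160 genes lower and 2031 higher; Ifit2 lost its call. A crossed pairing gave 32 members lower and 2 higher.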

Other observations

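Some interferon-stimulated genes outside the 42 had low levels in the gene tables and higher ones in CIH 3; they were picked after their values were seen and are given as values only. The guanylate-binding protein Gbp9 was at 0.835 and 0.719 FPKM in CIH 1 and 2, against 0.721 and 0.753 FPKM in control 1 and 2. In the transcript tables Gbp9 was at 20.6 FPKM in CIH 3, against 0.128 FPKM in control 3. Gbp4 was at or below 0.0816 FPKM in the 4 gene tables. In the transcript tables it was at 7.15 FPKM in CIH 3 and was listed at 0 in control 3. Sp100, a nuclear body protein, was at 1.20 and 1.22 FPKM in CIH 1 and 2, against 1.497 and 1.56 FPKM in control 1 and 2, and at 61.1 FPKM in CIH 3, against 0.680 FPKM in control 3.

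Of 2 chemokines that interferons induce, Cxcl10 was at 0.458 and 0.550 FPKM in CIH 1 and 2, against 0.121 and 0.238 FPKM in control 1 and 2, and at 6.32 FPKM in CIH 3, against 0.0983 FPKM in control 3. Ccl5 was at 0.438 and 0.456 FPKM in CIH 1 and 2, against 0.567 and 0.484 FPKM in control 1 and 2, and at 5.52 FPKM in CIH 3, against 0.308 FPKM in control 3. Cxcl10 was higher in CIH in both comparisons, under the level filter in the gene tables. B2m, the light chain of MHC class I, was at 1457 and 1343 FPKM in CIH 1 and 2, against 1183 and 1048 FPKM in control 1 and 2, a log2 change of 0.33 ± 0.14 (SE, limma adjusted p = 0.0905), and at 2287 FPKM in CIH 3, against 513 FPKM in control 3.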
